A study of Mus musculus with 10 samples.

Results

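The positions described here are the 65 WYC cytosines of a sequenced fragment of the mouse Smu switch region, out of 560 positions in the fragment and 243 usable C:G pairs. A WYC cytosine has A or T (W) 2 bases before it and C or T (a pyrimidine, Y) just before it, read 5′ to 3′ on the strand that carries the cytosine. The deposited reference base of each position gave the class, with no use of the measured substitutions. Of the 65 cytosines, 17 lay on the strand written in the deposited tables and 48 on its complement, where the tables show a G. By the 2 bases before and the cytosine itself there were 13 ACC, 12 ATC, 16 TCC and 24 TTC positions. The base after the cytosine was A at 15, C at 17, T at 32 and G at 1. The 5 positions at which the deposited tables gave the AID-/- libraries another reference base, called polymorphic here, and the last position of the fragment were left out.

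Activation-induced deaminase (AID) turns cytosine into uracil in the DNA of activated B cells, and in Smu, the repetitive intron upstream of the mu heavy chain constant exons (gene Ighm, chromosome 12), this starts class switch recombination. AID prefers a purine before the cytosine in the hotspot motif WRC (R is A or G) and disfavours the coldspot motif SYC (S is C or G), so WYC shares the first base of the hotspot and the pyrimidine of the coldspot. A uracil that is copied as it stands gives a transition (C:G to T:A). Uracil-DNA glycosylase (UNG) removes uracil and leaves an abasic site, which can be copied with any base and so give a transition or a transversion (C:G to G:C or C:G to A:T).

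Spleen B cells of UNG+/+ (4 libraries), UNG-/- (4 libraries) and AID-/- (2 libraries) mice were compared, and the AID-/- libraries served as the negative control. All 3 genotypes went through the same culture: CFSE staining (5 µM, a dye shared out between daughter cells), then 4 days in 25 µg/ml LPS, 10 ng/ml IL4 and 20 ng/ml BAFF, and sorting of cells that had divided 5 or more times. The fragment was amplified from genomic DNA for 25 PCR cycles, sheared to 100 to 300 bp and amplified for 10 more cycles in library preparation. Whether every library stands for its own mouse is not stated, and p-values therefore speak only of library-to-library spread, possibly technical. The AID-/- libraries do not share the haplotype of the others at the polymorphic positions. The sources used here give no ages and neither build nor coordinates of the fragment.

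Each level below is the number of reads with a given substitution per 10000 quality-filtered reads at a position. The level of a group of positions is their mean, each position weighing alike, and library values follow replicate order 1 to 4 (AID-/- 1 and 2). Total quality-filtered base reads ranged from 112909908 to 255310423 per library. Median coverage of the WYC positions ranged from 198839 reads (UNG-/- 2) to 538549 (UNG+/+ 4), at which a count of 0 allows a level of up to 0.151 and 0.0557, counting error only. The lowest coverage of a WYC position was 1956 reads in UNG+/+ 1 to 10904 in UNG-/- 3, where a 0 allows up to 15.3 and 2.75. Thinly covered positions weigh as much as the others in the means. UNG-/- libraries 1, 2 and 4 carried a second base at the polymorphic positions (up to 48.0, 48.2 and 45.7% of reads), against at most 0.283% in UNG-/- 3 and the UNG+/+ libraries. In AID-/- 1 and 2 a second base reached 2.38 and 2.35% of reads. Libraries numbered 1 and 2 (AID-/- 1 among them) had 97.92 to 98.31% of base reads above the quality threshold, those numbered 3 and 4 and AID-/- 2 had 98.68 to 99.01%. The part of these differences in the results was not tested, so values within each number pair and without the 3 libraries are given where they differ.

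The positions on which the results turn are named by the base in the deposited tables and their number in the fragment. Their windows are printed on the strand of the cytosine, with the 3 bases of the WYC motif in capitals. The first 5 had the highest transition level in UNG-/- cells, and at G300, G466 and G524 C:G to G:C changes also fell without UNG.
G300: ctaTTCtttct
G466: cccATCtcagc
G524: cttACCtcaga
G470: cccACCcatct
G129: tagATCaagaa
The next 4 had the highest UNG+/+ level (G513), the lowest UNG-/- level (G328), the one level that fell (C224) and the highest C:G to A:T level in AID-/- cells (C38).
G513: gtaATCacctc
G328: ccgACCtgctg
C224: agaTCCgaggt
C38: agaATCagtaa
At the last 3 C:G to G:C changes fell without UNG too.
G373: gctTTCtctgt
G418: tcaACCttgtt
C79: ggaTTCtggaa

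Transitions at WYC cytosines were about 3 times as frequent without UNG. The mean level was 2.02, 1.92, 1.77 and 1.79 in the UNG+/+ libraries (1.88 ± 0.117, SD, n = 4). In UNG-/- libraries it was 6.46, 6.77, 5.18 and 4.05 (5.61 ± 1.25, SD, n = 4). In AID-/- libraries it was 0.528 and 0.589. Every UNG-/- library lay above every UNG+/+ library, and every UNG+/+ library above both AID-/- libraries. The ratio of UNG-/- to UNG+/+ was 2.99, with 3.36 in libraries numbered 1 and 2 and 2.59 in those numbered 3 and 4. After subtraction of the AID-/- mean the excess was 1.32 in UNG+/+ and 5.06 in UNG-/-.

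Set beside the other C:G classes, WYC transitions were far below the hotspot and above the coldspot in both UNG genotypes. WRC positions (74) had means of 22.0 in UNG+/+ and 74.0 in UNG-/-. SRC positions (40), which share the purine but not the first base of the hotspot, had 3.34 and 11.7. SYC positions (63) had 1.04 and 2.41. The class means were not tested against each other.

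Single positions were tested with edgeR's quasi-likelihood test over all C:G positions that had 10 or more substituted reads in 2 or more libraries, with Benjamini-Hochberg adjustment at a threshold of 0.05. For transitions 64 of the 65 WYC positions entered the test, and G553, with few reads, did not. Between UNG-/- and UNG+/+ 61 rose and 1 fell, where 84.3% of all tested C:G positions rose and 0.424% fell. The median log2 change was 1.54 at WYC positions and 1.47 over all tested C:G positions. The genotypes did not overlap, with UNG-/- higher, at 55 of the 65 and at 75.7% of all C:G positions. Scaling the substituted reads by TMM, which removes a shift shared by most positions, left 3 higher and 3 lower. With UNG-/- 3 as the sole UNG-/- library 54 rose. Here and below, a fit with that library alone takes its spread from the UNG+/+ and AID-/- libraries and assumes that it varies like them. Of the other classes, 28 of 59 tested SYC, 38 of 40 SRC and 72 of 73 WRC positions rose, and these shares were not tested against each other.

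Against AID-/- cells, 62 WYC positions were higher in UNG-/- (87.3% of all tested C:G positions) and 46 in UNG+/+ (65.3%), and none was lower, also at an unadjusted p under 0.05 and with DESeq2. The libraries did not overlap at 63 positions for UNG-/- and at 52 for UNG+/+, where the shares over all C:G positions were 88.5% and 65.8%. With TMM scaling 15 were higher and 13 lower in UNG-/-, and 13 higher and 11 lower in UNG+/+. None lay wholly below AID-/- (0.412% and 0.823% of all C:G positions). The 2 positions not called in UNG-/- were G328 and C224. Both comparisons share the AID-/- libraries. Within UNG+/+ the calls covered 11 of 13 ACC, 11 of 12 ATC, 8 of 16 TCC and 16 of 23 tested TTC positions. By their reads in 1 genotype alone, 61 positions would have passed the read filter in UNG+/+, 64 in UNG-/- and 39 in AID-/-.

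The 4 contexts kept 1 order in every library with AID. ATC positions had a mean transition level of 3.04 in UNG+/+ and 8.72 in UNG-/-. ACC positions had 2.38 and 7.28, TCC positions 1.86 and 5.11. TTC positions were lowest, with 1.03 and 3.50. ATC was highest and TTC lowest in all 4 UNG+/+ and all 4 UNG-/- libraries, with ACC before TCC in each. The ratio of ATC to TTC was 2.54 to 3.36 over the UNG+/+ libraries and 2.37 to 2.82 over the UNG-/- libraries. A single position, G300, moved the TTC mean, which was 0.849 in UNG+/+ and 2.58 in UNG-/- without it. The AID-/- libraries had another order, with TCC highest (0.779 and 0.877) and TTC lowest (0.311 and 0.345). The ratio of UNG-/- to UNG+/+ was 2.74 in TCC, 2.86 in ATC, 3.06 in ACC and 3.40 in TTC. It includes the AID-/- background, which averaged 0.828 in TCC, 0.610 in ACC, 0.607 in ATC and 0.328 in TTC. With that background subtracted, ATC and not TCC had the lowest ratio, and TTC kept the highest. These ratios were not tested against each other.

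**Figure D1:**
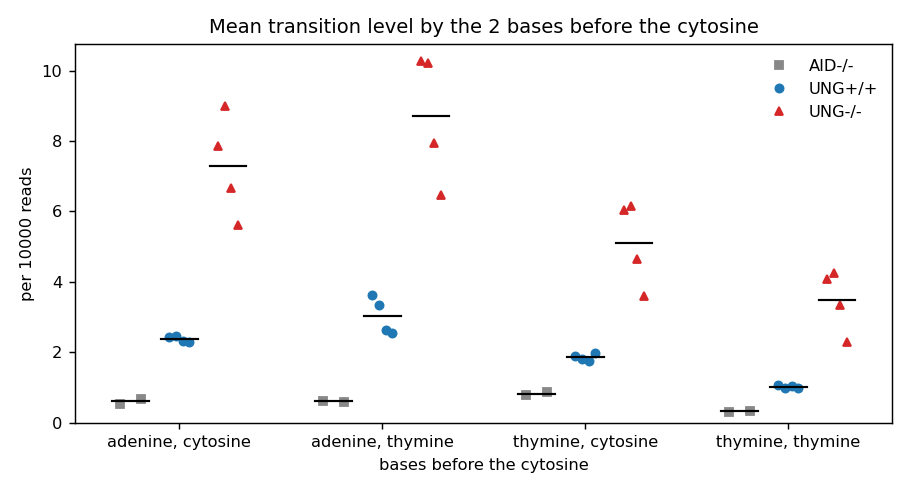
Mean transition level per 10000 reads (y axis) at WYC positions grouped by the 2 bases before the cytosine (x axis). Each point is 1 library and each bar the mean of its genotype. All UNG-/- points lie above the UNG+/+ points in each context, and both genotypes are highest after adenine and thymine (8.72 and 3.04).

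Grouped by the base after the cytosine, over all contexts together, the levels differed as well. Context and base after overlap: of the 24 positions of TTC, the lowest context, 15 had T after and 3 had A after. With A after, the mean was 3.12 in UNG+/+ and 8.30 in UNG-/-, with C after 1.69 and 4.8, and with T after 1.36 and 4.91. A after gave a higher mean than C or T after in all 10 libraries, AID-/- included, where the means were 1.15, 0.577 and 0.253. With these AID-/- means not subtracted, the ratio of UNG-/- to UNG+/+ was 2.66 with A after, 2.84 with C after and 3.62 with T after. Subtraction kept that order but brought the ratios closer together. T-after positions thus had the lowest level of the 3 in the control and the largest ratio, and they exceeded C-after positions in 2 of the 4 UNG-/- libraries and in no UNG+/+ library. The highest combination of at least 3 positions was ATCA (4 positions), with 5.20 in UNG+/+ and 12.6 in UNG-/-. The lowest was TTCC (6 positions), with 0.748 and 2.46. The order by the base before the cytosine changed with the base after. With C after, C before had a higher mean than T before in all 4 UNG+/+ and all 4 UNG-/- libraries. With A after it was higher in 0 libraries of either genotype, and with T after in 2 of each. In AID-/- it was higher in the 2 libraries with A, C or T after. Separate effects of the bases before and after were not tested.

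Cytosines on the complement of the written strand had more transitions, with 1.97 in UNG+/+ and 6.29 in UNG-/-, against 1.61 and 3.72 on the written strand. The order held in all 10 libraries, but in AID-/- the means were close (0.565 and 0.542). The strands hold the contexts in different proportions. Within TCC the UNG-/- mean was 6.24 at 12 positions on the complement and 1.72 at 4 on the written strand, C224 among them. Within ATC, ACC and TTC it was also higher on the complement, with 9.84 against 7.15, 8.52 against 3.14 and 3.84 against 2.22.

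Positions of the same context differed more than the contexts did. In UNG-/- cells levels ranged from 0.767 at G328 to 24.6 at G300, and 52 of the 65 were above 2, 24 above 5, 10 above 10 and 2 above 20. In UNG+/+ cells 21 were above 2, 4 above 5 and 0 above 10. The 5 highest positions held 27.9% of the summed UNG-/- excess. The 15 TTCT positions alone, which share the 4 bases, spanned 1.07 to 24.6 with a median of 2.35.

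**Figure D2:**
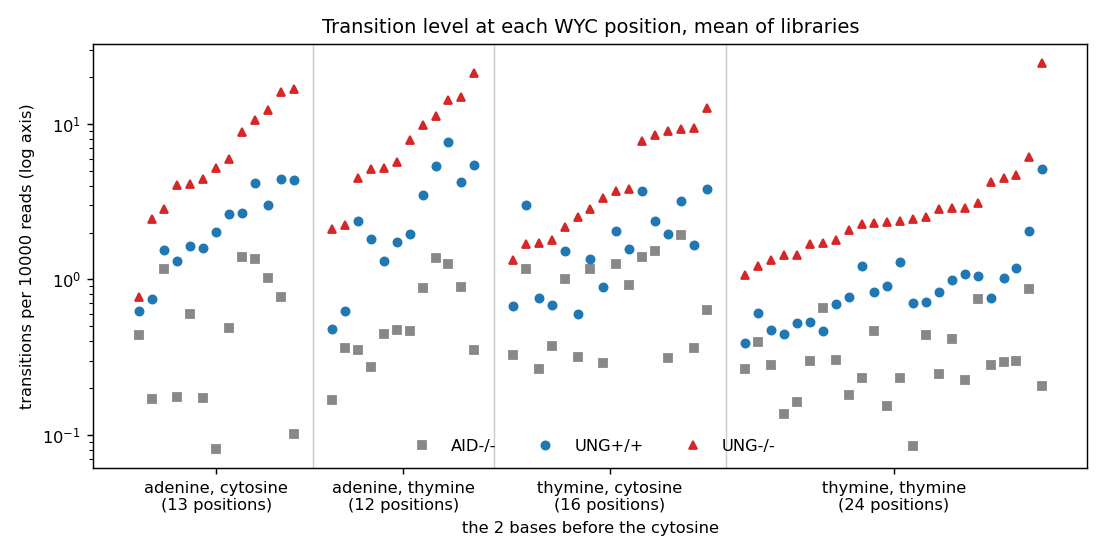
Mean transition level per 10000 reads (log y axis) of each of the 65 WYC positions, grouped by the 2 bases before the cytosine and sorted by the UNG-/- level (x axis). Triangles are UNG-/- (4 libraries), circles UNG+/+ (4) and squares AID-/- (2). UNG-/- levels run from 0.767 to 24.6, and G300 stands apart at the top of the thymine, thymine group.

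G300 (TTC, T after) had the highest UNG-/- level, with 29.8, 31.4, 22.3 and 15.1. Its UNG+/+ level was 6.61, 4.3, 5.01 and 4.65 and its AID-/- level 0.215 and 0.197. The groups did not overlap, and the log2 change of 2.26 ± 0.259 (SE) was called with an edgeR quasi-likelihood adjusted p (Benjamini-Hochberg) of 5.57e-17. G300 lay 12 bases from the nearest WRC cytosine.

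G466 (ATC, T after) followed with 27.1, 26.9, 17.5 and 14.3 in UNG-/- and 7.01, 4.81, 6.10 and 3.83 in UNG+/+, a log2 change of 1.99. G524 (ACC, T after) had 17.3, 23.0, 11.9 and 15.1 in UNG-/- and 4.57, 3.75, 4.12 and 5.12 in UNG+/+, a log2 change of 1.90. G524 held 1 transition in 123377 AID-/- reads. G470 (ACC, C after) and G129 (ATC, A after) had UNG-/- means of 16.1 and 14.9 and UNG+/+ means of 4.46 and 4.23. All 4 of these rose, with no overlap between the genotypes.

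In UNG+/+ cells the highest positions were G513 (7.70 ± 3.27, SD, n = 4), G466 (5.44), G300 (5.14), G524 (4.39) and C38 (5.37), in order of their excess over AID-/-. G513 (ATC, A after) had 10.2, 10.3, 3.45 and 6.82 in UNG+/+ and 14.5, 15.5, 15.1 and 12.3 in UNG-/-. Its rise, a log2 change of 0.94, had an edgeR quasi-likelihood adjusted p of 0.00299, which became 0.0512 without UNG+/+ 3. In UNG-/- cells the highest TCC level was 12.8, at G411 (C after), the lowest ATC level 2.24, at C70, and the lowest TTC level 1.07, at G267.

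The largest log2 changes were at G44 (2.50), G34 (2.46), G300 (2.26), G240 (2.19), G90 (2.16), G195 (2.12) and, between 2.01 and 2.12, G208, G146, C132 and G220. G44 (TCC, T after) had 2.04, 1.38, 1.38 and 1.86 in UNG+/+ and 12.4, 12.9, 6.99 and 5.38 in UNG-/-. G34 (TTC, T after) had 0.687, 0.707, 0.820 and 0.820 in UNG+/+ and 5.15, 4.98, 4.55 and 2.29 in UNG-/-. Of these 10, T followed the cytosine at all but G146, which has A after.

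G328 and C348 did not pass the test. G328 (ACC, T after) had 0.734, 0.750, 0.501 and 0.522 in UNG+/+ and 0.660, 0.855, 0.892 and 0.661 in UNG-/-. C348 (TCC, A after) had 0.972, 1.42, 1.60 and 2.10 in UNG+/+ and 2.19, 2.59, 2.18 and 1.67 in UNG-/-. The genotypes overlapped at both, with log2 changes of 0.33 ± 0.362 and 0.45 ± 0.314 (SE) and edgeR quasi-likelihood adjusted p of 0.378 and 0.168 (Benjamini-Hochberg).

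C224 (TCC), the single WYC cytosine followed by G and the single one with a polymorphic position as its next base, fell. Its transition level was 2.83, 3.75, 3.09 and 2.30 in UNG+/+ and 1.39, 1.10, 3.06 and 1.23 in UNG-/-. AID-/- libraries, in which the next reference base is A, had 1.02 and 1.30. UNG-/- 3, the UNG-/- library without a second base at the polymorphic positions, lay within the UNG+/+ range and the other 3 below it. The log2 change was -0.79 ± 0.301 (SE) with an edgeR quasi-likelihood adjusted p of 0.011, which became 0.0551 without UNG-/- 2, and the change was 0.03 with UNG-/- 3 as the sole UNG-/- library, a fit without replicates of its genotype.

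Across the 65 positions the UNG-/- and UNG+/+ levels followed each other, with Spearman's rho of 0.886 and Pearson's r of 0.872. Against the AID-/- level rho was 0.364 for UNG-/-. Against the distance to the nearest WRC cytosine it was -0.0650, against coverage -0.153 and against position number 0.146. These are descriptions over positions that share libraries and partly overlapping reads.

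C:G to G:C changes were rare at WYC cytosines, and the positions where they fell without UNG all had T after. Over all 65 positions the mean level was 0.603 ± 0.0387 in UNG+/+ and 0.411 ± 0.0963 in UNG-/- (SD, n = 4 each), against 0.492 and 0.533 in AID-/-. With T after, the UNG+/+ libraries had 0.888, 0.839, 0.809 and 0.749 and the UNG-/- libraries 0.302, 0.389, 0.420 and 0.433, with 0.480 and 0.487 in AID-/-. The AID-/- values thus sat between the UNG genotypes, with no overlap of any group. With A after the means were 0.465 in UNG+/+, 0.524 in UNG-/- and 0.619 in AID-/-, and with C after 0.336, 0.377 and 0.456. The UNG genotypes overlapped for both of these bases, and neither mean exceeded that of AID-/-.

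**Figure D3:**
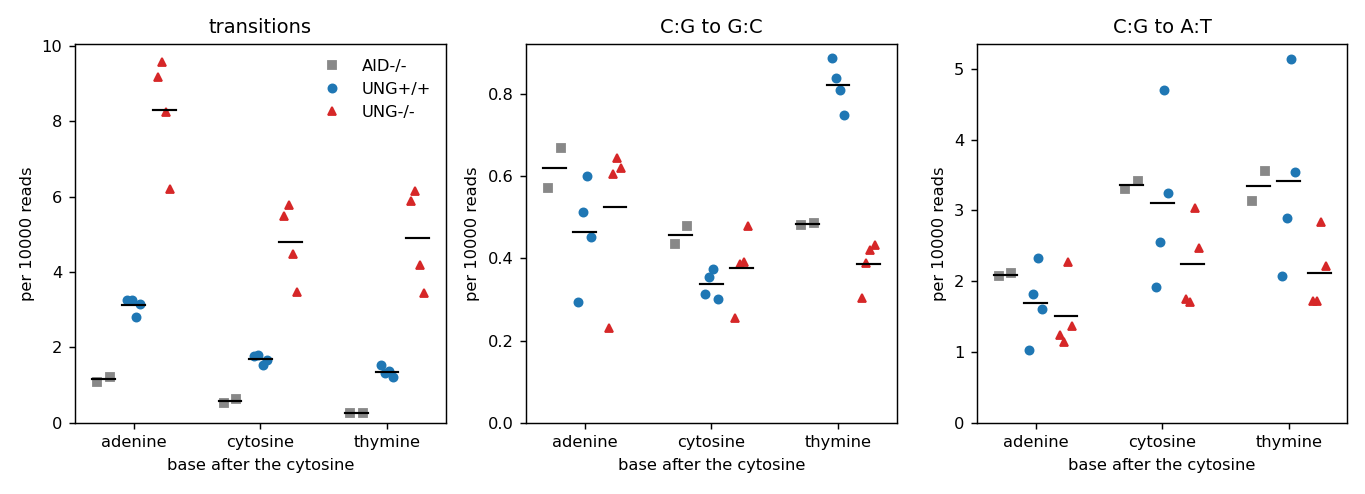
Mean level per 10000 reads (y axes) of transitions, C:G to G:C and C:G to A:T changes at WYC positions by the base after the cytosine (x axes). Each point is 1 library and each bar the mean of its genotype; the single position followed by G is not drawn. In the middle panel the UNG+/+ libraries (0.749 to 0.888) separate from all others with thymine after.

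For C:G to G:C changes 58 WYC positions entered the edgeR test between UNG-/- and UNG+/+. Of these 8 fell (28.3% of all tested C:G positions) and 0 rose (1.05%). At an unadjusted edgeR p under 0.05 11 fell, all with T after, and with DESeq2 8 fell. Neither gave a rise. All 8 were among the 29 tested positions with T after. None of the 29 other tested positions passed with edgeR, DESeq2 or limma, or at an unadjusted p under 0.05, although whether the bases differ was not itself tested. By the reads of UNG-/- libraries alone 3 of the 8 (G300, C79 and C126) would have passed the read filter. G418, G466 and G524 passed it through their UNG+/+ reads, where they were high, so their calls are no independent support. TMM scaling turned the split between directions, with 8 positions higher (2 of them with T after) and 4 lower (all with T after). UNG-/- lay wholly below UNG+/+ at 3 of the 65 positions and wholly above at 0, against 17.3% and 1.23% of all C:G positions. Among the other classes 39 of 66 WRC, 6 of 29 SRC and 1 of 38 SYC positions fell. With T after the falls covered 29 of 32 WRC and 6 of 13 SRC positions, with A or C after 9 of 30 WRC and 0 of 16 SRC positions.

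The positions that fell, in order of their log2 change, were G300 (-3.16), G524 (-3.12), G466 (-2.61), G373 (-2.58), G418 (-1.70), G227 (-1.43), C126 (-1.37) and C79 (-0.98). G300 had 6.15, 5.23, 5.14 and 4.71 in UNG+/+, 0.655, 0.681, 0.412 and 0.638 in UNG-/-, and 0.610 and 0.764 in AID-/-. In UNG+/+ cells this position gave as many C:G to G:C changes (mean 5.31) as transitions (mean 5.14). Its fall of 3.16 ± 0.341 (SE) on the log2 scale had an edgeR quasi-likelihood adjusted p of 8.86e-08.

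G373 (TTC) had 0.474, 0.976, 1.02 and 0.941 in UNG+/+ and 0.109, 0.211, 0.229 and 0 in UNG-/-, where a group sum of 13 reads stood behind the level. G466 had 1.87, 1.51, 0.368 and 1.78 in UNG+/+ and 0.0853, 0.514, 0.159 and 0.193 in UNG-/-. G524 had 0, 2.42, 2.06 and 2.91 in UNG+/+ and 0, 0.779, 0.133 and 0.199 in UNG-/-, with 43 and 4 reads in all. The genotypes overlapped at G466 and G524 and not at G373, and limma did not call G524 (adjusted p = 0.130). C79, C126 and G227 each lost the call in at least 1 setting without a UNG-/- library, and C126 also without UNG+/+ 2. The fit with UNG-/- 3 as the sole UNG-/- library has no replicates of its genotype. There the log2 changes were -3.79 at G524, -3.05 at G466, -1.90 at G373 and -1.86 at G418. At C126, C79 and G227 they were -1.33, -0.67 and -0.66. C79 lost it too with the replicate numbers as a block, with limma and with only the 2 UNG genotypes fitted. It was further lost at C79 without UNG+/+ 1 or 2 and without either AID-/- library.

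Without G300 the T-after mean was 0.676 in UNG+/+ and 0.379 in UNG-/-. Of the joint excess of transitions and C:G to G:C changes over AID-/- at T-after positions, C:G to G:C made up 23.4% ± 1.44 (SD, n = 4) in UNG+/+ and 16.8% without G300. Over all WYC positions the UNG+/+ share was 6.41% ± 2.75 and 1.51% without G300, and with A or C after it was below 0 (-8.49 and -12.1%). In UNG-/- the T-after share was -2.06%. A share below 0 means a C:G to G:C level under that of AID-/-.

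**Figure D4:**
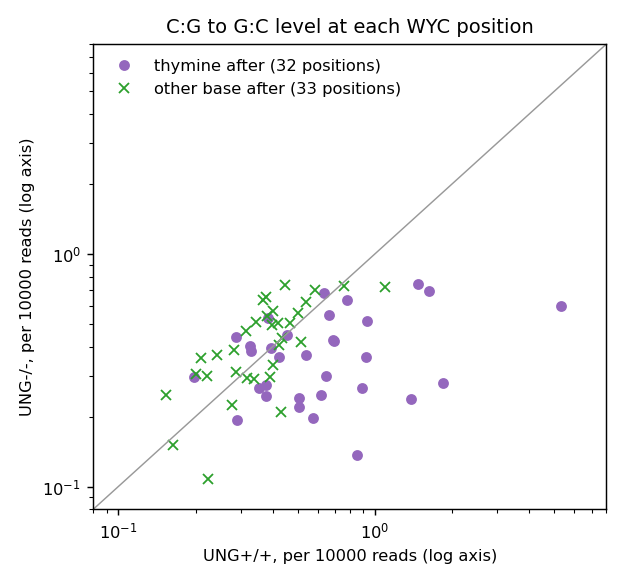
C:G to G:C level per 10000 reads of each WYC position in UNG+/+ (x axis, log) and UNG-/- (y axis, log), as means of 4 libraries, with the line of equal levels. Filled circles are the 32 positions with thymine after, of which G300 lies farthest to the right (5.31 and 0.597), and crosses are the other 33.

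Against AID-/-, 1 WYC position was called lower in UNG-/- (0.524% of all tested C:G positions), C224. In UNG+/+ 1 was higher, G300 (23.6%), and 1 lower, C224 (0.524%). This count changed with the setting: 4 were higher and 6 lower with the replicate number as a block, 1 higher and 6 lower with TMM scaling, and 3 higher and 2 lower without UNG+/+ 3. The AID-/- libraries share that block only with UNG libraries numbered 1 and 2. Without overlap of libraries, 0 positions were higher and 8 lower in UNG-/- (2.88% and 12.8% of all C:G positions), and 5 higher and 10 lower in UNG+/+ (22.6% and 16.9%). G300's log2 change against AID-/- was 2.93 ± 0.437 (SE) with an edgeR quasi-likelihood adjusted p of 1.38e-05. C224 had 0.674 and 0.907 in AID-/-, 0.109 to 0.414 in UNG+/+ and 0.0614 to 0.145 in UNG-/-, and lost both calls without AID-/- 2. With UNG-/- 3 alone its log2 change against AID-/- was -2.43. The next reference base of C224 differs between the AID-/- and UNG libraries, so these calls do not compare the same sequence. The highest AID-/- levels were 1.34 at C38, 1.03 at C79 and 0.995 at C204, all on the written strand.

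C:G to A:T changes were present in AID-/- cells at levels within the UNG+/+ range. The mean level was 1.81, 2.57, 4.41 and 3.03 in UNG+/+ (2.95 ± 1.09, SD, n = 4). In UNG-/- it was 1.62, 1.58, 2.82 and 2.10 (2.03 ± 0.580, SD, n = 4), and in AID-/- it was 2.90 and 3.14. The genotypes overlapped, and library 3 was highest in both UNG genotypes. Within each replicate number the UNG-/- library was lower than the UNG+/+ library.

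The level depended on the neighbours in the AID-/- libraries too. With C before and A after, the mean over 8 positions was 0.976 in UNG+/+, 0.803 in UNG-/- and 1.25 in AID-/-. With T before and A after (7 positions) it was 2.52, 2.30 and 3.05. With T after it was 3.42, 2.12 and 3.34, and with C after 3.10, 2.24 and 3.35. Cytosines on the written strand were higher than those on the complement in all 10 libraries, with 4.13 against 2.63 in AID-/-. The highest AID-/- levels were 8.26 at C38 (7.60 and 8.91), 5.98 at C79 and 5.79 at C70. C38 had 6.21 ± 2.24 in UNG+/+ and 5.44 ± 2.32 in UNG-/- (SD, n = 4 each), which overlap the AID-/- values.

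Of 63 tested positions 6 fell between UNG-/- and UNG+/+ (19.9% of all tested C:G positions) and 0 rose. With DESeq2 7 fell, and at an unadjusted edgeR p under 0.05 22 fell, 17 with T after and 5 with C after. Neither gave a rise. The 6, all with T after, were G524 (log2 change -1.57), G300 (-1.29), G373 (-1.28), G270 (-1.07), G220 (-0.99) and C479 (-0.90). G300 had 4.92, 4.81, 5.87 and 4.93 in UNG+/+, 1.27, 1.36, 3.38 and 2.26 in UNG-/-, and 3.55 and 3.15 in AID-/-. Its genotypes did not overlap, and the edgeR quasi-likelihood adjusted p was 0.00698 (0.0637 without UNG-/- 1). G220 had 1.42, 2.43, 4.21 and 4.55 in UNG+/+ and 1.29, 1.66, 1.84 and 1.59 in UNG-/-, and overlapped. At 5 of the 65 positions the genotypes did not overlap (19.3% of all C:G positions). With the replicate number as a block 29 fell, 22 of them with T after and 6 with C after, and 0 rose. With TMM scaling 1 was higher and 1 lower. The count of calls was 29 with UNG+/+ 1 left out, 20 with UNG-/- 3 left out, 1 with UNG-/- 1 left out, 3 with UNG-/- 2 or 4 left out, 0 with UNG-/- 3 alone, and 18, all lower, with the quality pair as a term.

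Against AID-/- no WYC position was called in UNG-/- with edgeR or DESeq2, where 10 were lower and 1 higher at an unadjusted p under 0.05. With the replicate number as a block 48 were lower and 1 higher. The AID-/- libraries share that block only with UNG libraries numbered 1 and 2, which had the lower C:G to A:T means in both UNG genotypes. Whether AID-/- numbers pair with UNG numbers was not checked, and AID-/- 2 had the read quality of numbers 3 and 4. The libraries did not overlap at 35 positions that were lower, against 40.3% of all C:G positions, and at 1 that was higher, against 0.412%. In UNG+/+ 1 was higher (4.33% of all tested C:G positions), C224, with 2.83, 3.36, 7.29 and 4.48 against 0.898 and 0.975. This call was lost when either AID-/- library was left out. The next reference base of C224 is G in the UNG libraries and A in AID-/-, so the groups also differ in sequence there. The block gave 1 higher and 4 lower. UNG+/+ libraries lay wholly above AID-/- at 3 positions (12.8% of all C:G positions) and wholly below at 3 (5.76%).

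All substitutions together rose at 26 of 64 tested WYC positions without UNG and fell at C224, where 55.3% of all tested C:G positions rose and 0.844% fell. C224 is the position with a polymorphic next base. No WYC position fell with DESeq2, or without UNG+/+ 2 or 3 or UNG-/- 1, 2 or 4. With any other library left out 1 or 2 fell. The mean level was 5.43 ± 1.01 in UNG+/+ and 8.05 ± 0.970 in UNG-/- (SD, n = 4 each), against 3.92 and 4.26 in AID-/-. By the next base, 12 of 14 tested positions rose with A after, 5 of 17 with C after and 9 of 32 with T after. Transitions alone rose at an unadjusted p under 0.05 (edgeR quasi-likelihood) at 13 of 14, 17 of 17 and 31 of 32. The totals include C:G to A:T changes, whose AID-/- mean was 2.09 with A after, 3.35 with C after and 3.34 with T after. The counts were not tested against each other. At 21 of the 65 positions the genotypes did not overlap (47.7% of all C:G positions), and with UNG-/- 3 as the sole UNG-/- library 15 rose. TMM scaling gave 7 higher and 27 lower. Against AID-/-, 41 positions lay wholly higher in UNG-/- (67.1% of all C:G positions) and 22 in UNG+/+ (45.7%), and 0 wholly lower (2.88% and 1.23%).

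In the AID-/- libraries the highest transition levels were 1.92 at G21 (TCC), 1.52 at G258 (TCC) and 1.40 at G199 (ACC), all with A after. UNG+/+ means there were 3.18, 2.36 and 2.68, and UNG-/- means 9.32, 8.54 and 8.94. No WYC position exceeded 2 in AID-/- cells, whereas 21 did in UNG+/+ and 52 in UNG-/-.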

How the data were processed

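The members, motif classes and tests were chosen with earlier results of these data known. Per the file headers, the authors deposited for each position the reads, the reads above a Phred quality of 20, the count of reads with each substitution and its fraction of the filtered reads. The deposited fraction was recomputed from the counts and is printed per 10000. Software listed in the submitters' processing notes, with no roles, was SAMtools 0.1.11, Novoalign 2.07.04 and CASAVA 1.7. Reads are PCR copies without molecular identifiers, and the AID-/- libraries give the background. Groups and replicate numbers came from the sample titles.

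Substituted reads were tested with edgeR 4.0.16 (quasi-likelihood, R 4.3.3) offset by log coverage, 1 fit of the 10 libraries per substitution type, adjusted over all tested C:G positions. DESeq2 1.42.0, limma 3.58.1 on the log2 fraction (pseudocount 1e-05), TMM scaling, no read filter, a replicate block, a quality pair term, positions over 3 bp from polymorphisms and each library left out were alternatives, and UNG-/- 3 alone and G300 left out were added after the data were seen. Tested on simulated data, the UNG-/- against UNG+/+ fit recovered 85, 55 and 65% of 2, 1.5 and 0.5-fold changes in transitions (236 positions, 6 false calls). For C:G to G:C it recovered 15, 10 and 25% (191 positions, 0 false), and for C:G to A:T 55, 20 and 30% (231 positions, 1 false). The simulation changed 20 positions per size of change. Otherwise each position had the same rate in all groups, and all positions had a common spread. The data differ from these settings, so the recovered shares need not hold for them.

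Replicate numbers were checked by correlating deviations from group means between UNG+/+ and UNG-/- libraries. For all substitutions together same-numbered libraries gave 0.495, 0.134, 0.259 and 0.324. Differently numbered libraries within numbers 1 and 2 or within 3 and 4 gave 0.457, 0.165, 0.451 and 0.265. All other combinations gave -0.531 to -0.129. Positive values thus lay within the number pairs of like read quality, and the numbers are not shown to pair libraries. The block is an alternative setting only. Within single substitution types not every pair passed 0.1. Blocked values stand beside the results they move by over 1.5 times.

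Positions were named where they had the 10 largest rises or 5 largest falls in transitions, the 5 highest excesses per UNG genotype, the highest and lowest UNG-/- excess per context, up to 5 transversion changes per direction, the 3 highest AID-/- levels per type, or did not pass. C126, G227, C479 and G553 were named after their values were seen. Python 3.11.15, numpy 2.4.6, pandas 2.3.3, scipy 1.17.1 and matplotlib 3.10.9 served for the rest.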

Additional observations from a re-analysis of the deposited data

Results flagged for a closer look

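Among 60 groups of 4 libraries examined (3 substitution types, 10 sets of WYC positions, 2 UNG genotypes), 1 held a library far from the others. The mean C:G to G:C level of the 15 positions followed by A in UNG-/- cells was 0.230 in UNG-/- 1, and the next library had 0.604. The gap took up 0.906 of the group's range, above Dixon's 95% critical value for 4 samples. Chance marks about 1 in 20 such groups.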

How the results depend on the processing

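TMM scaling of the substituted reads, which removes differences in total substitution load, moved the median log2 transition change of all C:G positions between UNG-/- and UNG+/+ from 1.47 to -0.05. Relative to that, 6 WYC positions were called (3 higher, 3 lower), 28 for UNG-/- against AID-/- (15 higher, 13 lower) and 24 for UNG+/+ against AID-/- (13 higher, 11 lower). The same scaling gave 7 calls for C:G to G:C in UNG+/+ against AID-/-, and for C:G to A:T 2 between the UNG genotypes and 1 in UNG-/- against AID-/-.

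With the replicate block, 62 transition calls were made between the UNG genotypes, 8 for C:G to G:C (C79 no longer among them) and 33 against 27 for all substitutions, while C:G to A:T went to 29 between the UNG genotypes, 49 (UNG-/- against AID-/-) and 5 (UNG+/+ against AID-/-), and C:G to G:C to 10 (UNG+/+ against AID-/-). Same-numbered libraries correlated at -0.0380 to 0.131 for transitions, -0.106 to 0.298 for C:G to G:C and 0.0283 to 0.340 for C:G to A:T. Differently numbered ones gave overlapping ranges of -0.234 to 0.230, -0.328 to 0.204 and -0.288 to 0.225. The blocked counts against AID-/- have the limit given in the Results. The quality pair as a term gave 18 and 2 C:G to A:T calls (against UNG+/+ and AID-/-), limma 3 against UNG+/+, and a fit of UNG-/- and AID-/- alone 3. UNG-/- 3 as the sole library gave 1 C:G to G:C and 0 C:G to A:T call against UNG+/+, 0 C:G to G:C against AID-/-, and 15 for all substitutions. Without positions near polymorphisms, C:G to G:C calls against AID-/- were 0 in UNG-/- and 1 in UNG+/+, and C:G to A:T calls 0 in UNG+/+.

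Leaving out 1 library gave 61 to 62 transition calls between the UNG genotypes, 61 to 62 for UNG-/- and 38 to 48 for UNG+/+ against AID-/-. In the same order, C:G to G:C calls ranged from 5 (without UNG-/- 1 or 2) to 11, 0 (without AID-/- 2) to 1, and 1 (without AID-/- 2) to 5 (without UNG+/+ 3). C:G to A:T calls ranged from 1 to 29, 0 to 3 (without UNG+/+ 1 or 3) and 0 to 1, and calls on all substitutions from 20 to 33. The mean transition excess ranged from 1.27 to 1.35 in UNG+/+ and 4.67 to 5.58 in UNG-/-, that of C:G to G:C from 0.0703 to 0.111 and -0.125 to -0.0539, and that of C:G to A:T from -0.552 to 0.315 and -1.26 to -0.842.

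As a median over positions the transition excess was 0.958 in UNG+/+ and 3.08 in UNG-/-, and from pooled reads 1.16 in UNG+/+. The C:G to G:C excess in UNG+/+ was -0.0589 as a median and 0.0198 without G300. With AID-/- not subtracted, transitions averaged 1.88 in UNG+/+. C:G to G:C then averaged 0.603 in UNG+/+ and 0.411 in UNG-/-, while C:G to A:T averaged 2.95 and 2.03. The cause of these shifts was not tested. Depth limits C:G to G:C most: 58 of 65 positions passed the read filter, 35 by UNG-/- reads alone.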
